A study of Mus musculus with 14 samples.

Results

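Keratins and desmosomal proteins were followed across 14 arrays of mouse colorectal tumors and control epithelium. They were chosen by gene symbol alone, as every probe set with 1 symbol that begins with Krt and a digit or names a desmoglein, desmocollin, desmoplakin, plakophilin 1 to 4, plakoglobin, envoplakin or periplakin. The rule found 67 of 22626 probe sets, for 48 genes, of which 36 are keratins. A probe set was counted as not expressed where all 4 group means (geometric means of the array intensities) were under 10. This left 43 probe sets of 28 genes with a group mean of at least 10, a share of 64.2% against 63.1% of all probe sets.

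Colitis-associated (CAC) tumors came from 4 male C57BL/6J mice, 1 array each, after 1 dose of azoxymethane, a carcinogen, at 10 mg/kg and 3 cycles of dextran sodium sulfate, an agent that injures the colon lining, at 2.5% for 7 days with 14 days of recovery. Their control was tumor-free distal colon epithelium on 2 arrays, each a pool of 5 male C57BL/6J mice, and the labels do not say whether these mice had received either agent. Sporadic tumors came from 5 male C57BL/6J-ApcMin/+/J mice, 1 array each, and their control epithelium, on 3 arrays of pools of 4 mice, carries the same strain label. The Min allele truncates Apc, a brake on Wnt signaling. The labels give no ages. All tumors were distal, and tumor and control tissue alike was incubated in a chelating buffer that frees epithelium. The controls were the purified epithelium and the tumors were used whole. The labels place every CAC array in experimental block 1 and every sporadic array in block 2, so block and model cannot be told apart. Array medians lay between 15 and 18.

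Keratins are the intermediate filament proteins of epithelial cells. They form obligate pairs of a type I and a type II protein, and in mice the type II genes lie in a cluster on chromosome 15 and nearly all type I genes in a cluster on chromosome 11, with Krt18 as the type I gene beside Krt8. Simple epithelium such as that of the colon uses mainly Krt8, Krt18, Krt19 and Krt20, whereas Krt5 and Krt14 mark the basal layer of stratified (squamous) epithelium and Krt4, Krt13 and Krt6 its upper or activated layers. Desmosomes are the spot-like junctions to which these filaments attach. In them the cadherins desmoglein and desmocollin bridge neighbouring cells, plakoglobin (Jup) and plakophilins bind their tails, and desmoplakin links the plaque to the keratin filaments.

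The epithelial label held in the controls: Epcam, the pan-epithelial adhesion molecule listed as Tacstd1, averaged 11898 in CAC and 7976 in sporadic control epithelium. The 12 connective tissue genes listed for comparison summed to 203 to 373 in CAC controls and 97 to 112 in sporadic controls, against 6210 to 14239 and 6673 to 13631 in the tumors. The 11 leukocyte genes summed to 387 to 469 over all controls and to 2631 to 5657 over all tumors. Members are mostly epithelial transcripts, so a lower share of epithelial cells and less RNA per epithelial cell cannot be told apart in these whole tumors. The 21 measured genes of simple epithelium outside the members gave a scale for this: their mean log2 change, tumor minus control, was -0.41 for CAC and -0.35 for sporadic tumors.

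CAC tumor 1 stood apart in stratified keratins. Krt5, the basal layer keratin, read 1866 in CAC tumor 1 and 7 to 10 on the other 13 arrays. Krt6b read 3048 there and 4 to 5 elsewhere. Krt13, a keratin of internal stratified epithelium, read 2467 in CAC tumor 1, 27 in CAC tumor 2 and 9 to 11 elsewhere. Krt4, its pairing partner, read 1259, 10, 27 and 18 in CAC tumors 1 to 4, and 12 to 183 in the sporadic tumors against 4 to 7 in all controls. Krt6a read 4329, 19, 93 and 72 in CAC tumors 1 to 4. These genes were singled out after their values were seen. Probe sets cannot fully part the near-identical Krt6a and Krt6b, but Krt6b stayed at 4 to 5 on the arrays where Krt6a read 19 to 129.

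**Figure D1:**
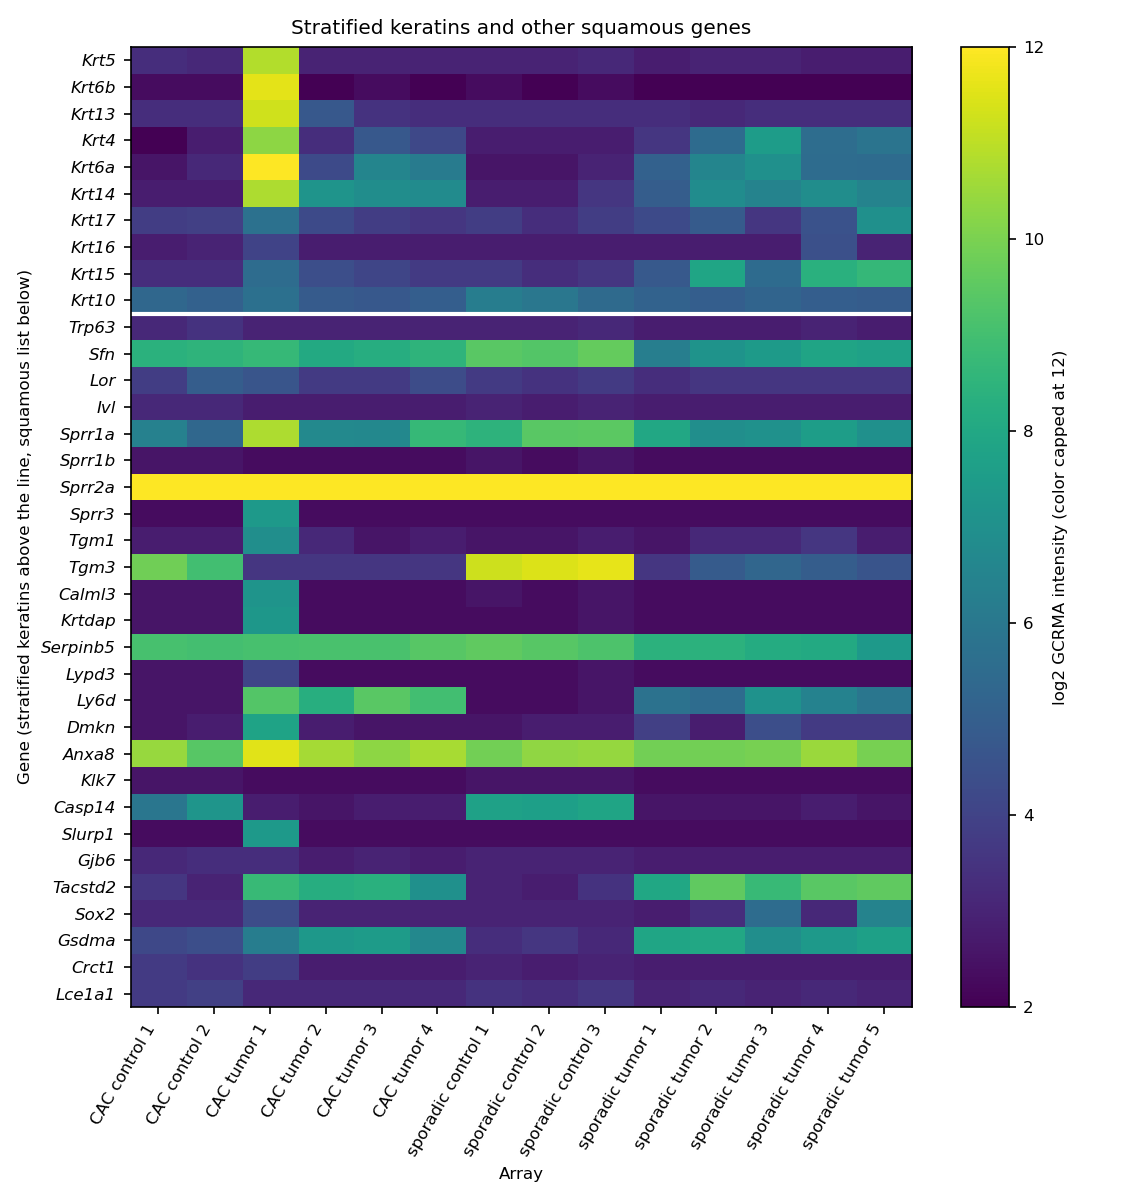
Log2 intensity (color, capped at 12) of 10 stratified keratins (upper rows) and 26 other squamous genes (lower rows) on each of the 14 arrays (columns). In CAC tumor 1 Krt5, Krt6b, Krt13, Sprr3, Krtdap and Slurp1 are bright while the other arrays are dark, whereas Krt14 and Krt6a are also raised above controls in most other tumors.

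Part of a list of other squamous genes was also high on that array. Of 26 measured genes, 10 were higher in CAC tumor 1 than on every other array, 6 of them by at least 10 times. Krtdap, a product of differentiating keratinocytes, read 157 there and 5 to 6 elsewhere, Sprr3, a cornified envelope protein, 166 against 5, and Slurp1 169 against 5. Trp63, the transcription factor of squamous basal cells, stayed at 7 to 11 on all arrays, and loricrin (Lor) and involucrin (Ivl) did not exceed 31 and 9. The list's summed level was 9788 to 17943 in CAC tumors and 26437 to 27950 in their controls. Its largest term on these arrays was Sprr2a, at 6256 to 12916 in the tumors and 23999 and 24437 in the controls. Tgm3 read 12 in all 4 CAC tumors and 12 to 39 in sporadic tumors, against 502 to 3151 in controls. Of the 26 genes, 3 rose and 8 fell in the CAC model (3 and 13 without CAC tumor 1). Their median log2 change was 0.15. In the sporadic model 3 rose and 10 fell, with a median of -0.15. Over all probe sets 14.2% rose and 25.6% fell in the CAC model (13.9% and 24.4% without CAC tumor 1). In the sporadic model 17.8% of all rose and 28.2% fell. Of the 26 genes, 6 had all group means under 10, where 1 rounded unit can pass. Results that rest on CAC tumor 1 are given with and without it. The part of squamous tissue in them was not tested beyond that.

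Setting CAC tumors against CAC controls asks how this cytoskeleton differs in colitis-associated tumors. Krt7 and Krt23, keratins of simple epithelium, and Krt36, a keratin named for hair, were far higher in the tumors, Krt14 rose from the floor of the array, and the abundant pair Krt8 and Krt19 was modestly lower while Krt18 rose. In the junctions, the plakophilin gene Pkp1 rose and the plakin gene Evpl fell, and all 6 probe sets of the cadherin gene Dsg2 fell. The test was limma across all 22626 probe sets, with a probe set called at a Benjamini-Hochberg adjusted p under 0.05. Of the 67 members, 10 rose (14.9%, against 14.2% of all probe sets) and 16 fell (23.9%, against 25.6% of all). Together 26 were called, where 39.9% of all probe sets were, so these counts lay near or under the background. At least 2-fold, 6 rose and 3 fell, where 8.59% and 6.2% of all probe sets did. Of the 16 that fell, 6 had all group means under 10, where 1 rounded unit can pass. Without CAC tumor 1, 9 rose and 14 fell (13.9% and 24.4% of all probe sets, 38.2% in either direction). Without CAC control 1, 14 members were called (33.8% of all probe sets).

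The comparison of sporadic tumors with their controls asks the same of tumors in Apc Min/+ mice. Krt7, Krt23 and Krt18 were again higher and Krt8 and Krt19 lower, Krt20, the keratin of mature surface cells, fell, and Krt14, Krt15, Pkp1, Pkp4 and Ppl rose. Of the 67 members, 10 rose (14.9%, against 17.8% of all probe sets) and 15 fell (22.4%, against 28.2% of all), together 25, where 46.0% of all probe sets were called. At least 2-fold, 8 rose and 3 fell, where 10.3% and 8.08% of all probe sets did. Of the 15 that fell, 7 had all group means under 10. Without CAC tumor 1, which enters this comparison only through the shared estimate of spread, 13 rose and 15 fell (18.1% and 28.5% of all probe sets, 46.5% in either direction). The median log2 change of the 67 members was 0.00 in both comparisons, against -0.05 and -0.04 over all probe sets, and 24 of the 67 lay at the floor.

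In each group of arrays the change of the members also depends on what it is set against. Relative to the 21 other genes of simple epithelium, 30 members rose and 2 fell in the CAC model, where 39.5% of all probe sets rose and 6.42% fell. In the sporadic model 29 rose and 4 fell, where 45.4% of all rose and 10.0% fell, so this shift is one of all probe sets. This setting takes the mean change of those genes from every log2 change, also at the floor, and the changes below are as measured unless it is named.

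**Figure D2:**
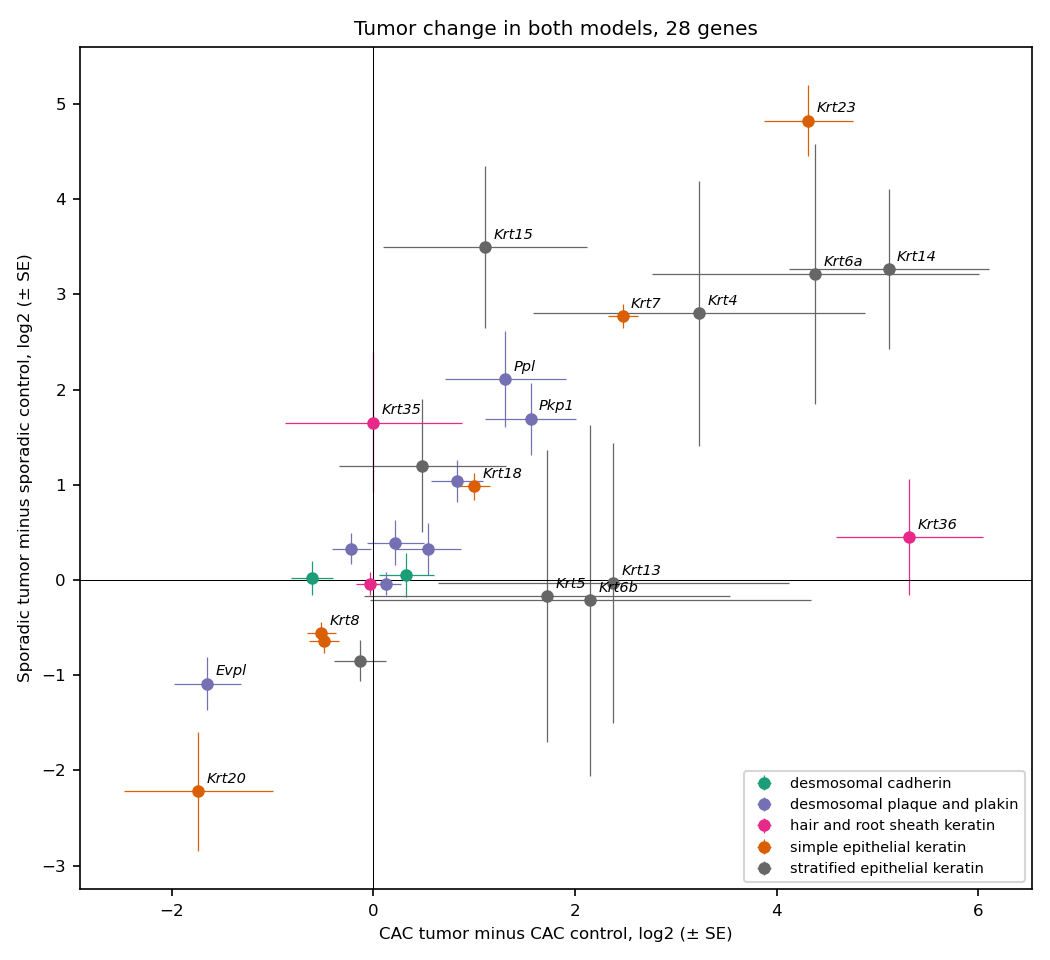
Log2 change ± SE of the 28 genes with a group mean of at least 10 (1 probe set a gene, colored by role) for CAC tumors against controls (x axis) and for sporadic tumors against controls (y axis). Krt23 and Krt7 lie far to the upper right, Krt36 far to the right near 0 on the y axis, and Krt5, Krt6b and Krt13 to the right with long error bars that CAC tumor 1 sets.

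Among simple epithelial keratins, Krt7, the type II keratin of ducts and glands, gave the tightest separation. It read 2870, 2992, 2330 and 2388 in CAC tumors 1 to 4 against 439 and 512 in their controls. In sporadic tumors 1 to 5 it read 2579, 2522, 3316, 3288 and 3074 against 465, 444 and 386 in theirs. Every tumor lay above every control, by 5.55-fold in the CAC model (log2 2.47 ± 0.15, adjusted p 1.97e-07) and 6.82-fold in the sporadic model (log2 2.77 ± 0.13, adjusted p 1.30e-08). The difference between the changes was a log2 of -0.30 ± 0.19 (adjusted p 0.412), and tumors of both models differed by -0.16 ± 0.11 (adjusted p 0.435).

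Krt23, a type I keratin of gut and pancreas epithelium, rose more. It read 264, 548, 952 and 509 in CAC tumors 1 to 4 and 24 and 28 in their controls, and 854, 1083, 568, 672 and 1128 in sporadic tumors 1 to 5 against 23, 38 and 29 in theirs. No tumor came near a control, and CAC tumor 1 was the lowest tumor. The rise was 19.8-fold in the CAC model (log2 4.31 ± 0.44, adjusted p 2.40e-05) and 28.3-fold in the sporadic model (log2 4.82 ± 0.37, adjusted p 1.78e-06), and the changes differed by -0.51 ± 0.58 (adjusted p 0.673). The authors' deposited table gives fold changes of 19.88 and 28.20 for Krt23 and corrected p-values of 0.0072 and 1.54e-04. Not every call here passes there. The authors' CAC values were under 0.05 for Krt7, Krt18, Krt36 and Krt14 (0.00129 to 0.0499). They were above it for Evpl (0.0526), Krt8 (0.0529), Pkp4 (0.0997), Krt19 (0.116), Pkp1 (0.139) and all 6 Dsg2 probe sets (0.0723 to 0.171). Their sporadic values for Krt6a (0.00222) and Krt4 (0.0239), not called here with all arrays, were under 0.05.

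Krt20, a type I keratin of mature surface colonocytes, went the opposite way to Krt23, its neighbour on chromosome 11 with no annotated gene starting between them. It read 439, 2071, 2611 and 2981 in CAC tumors 1 to 4 against 6053 and 4875 in their controls. In sporadic tumors 1 to 5 it read 255, 217, 711, 520 and 202 against 1790, 1466 and 1433 in theirs. All tumors lay under their own controls, and all 3 sporadic controls lay under 3 of the CAC tumors. Krt20 fell 4.66-fold in the sporadic model (log2 -2.22 ± 0.62, adjusted p 0.013) and missed the threshold in the CAC model (-1.74 ± 0.74, adjusted p 0.0845, and -1.10 ± 0.50 with an adjusted p of 0.112 without CAC tumor 1). CAC tumors exceeded sporadic tumors (log2 2.29 ± 0.57, adjusted p 0.0209), a call that ended without any of CAC tumors 2, 3 and 4 or sporadic tumor 5 (highest adjusted p 0.064), and CAC controls exceeded sporadic controls by a log2 of 1.80 ± 0.78 (adjusted p 0.148). The control difference passed without CAC tumor 1 (adjusted p 0.0414). The changes themselves differed by 0.48 ± 0.97 (adjusted p 0.852). Of 8 measured genes of surface colonocytes, 7 fell and 0 rose in each model, and their summed level was 1380 to 11003 in tumors and 31140 to 59465 in controls.

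**Figure D3:**
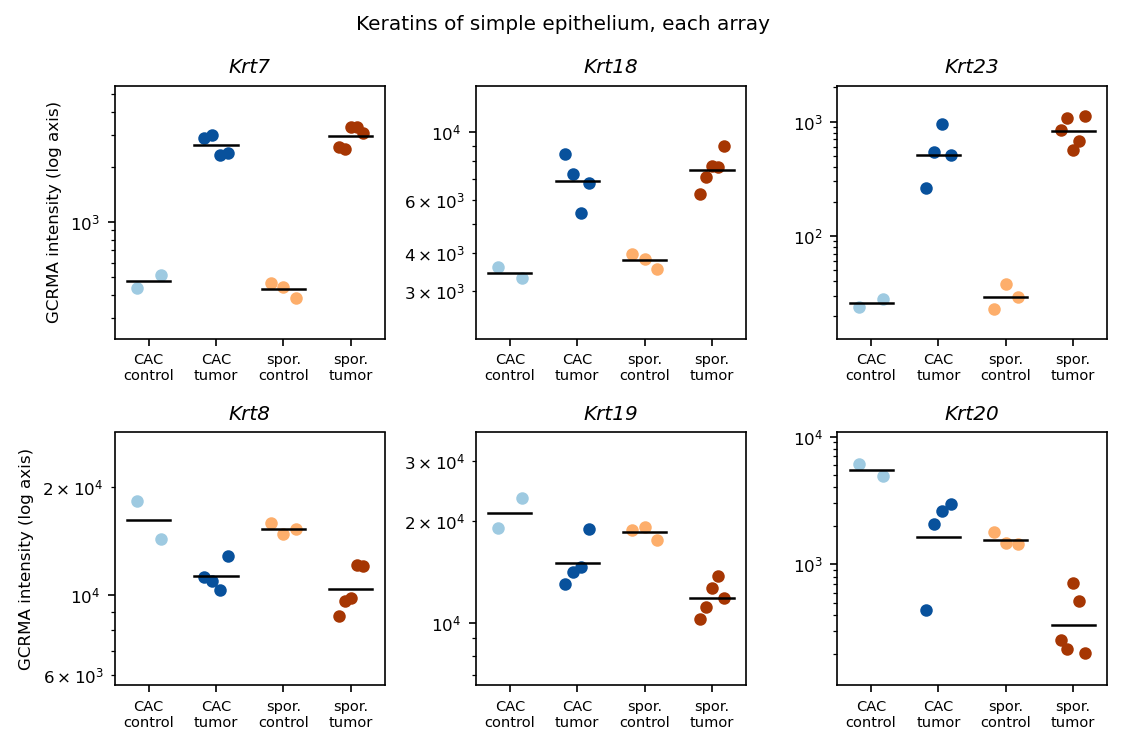
Intensity (log axis) of 6 simple epithelial keratins on each array (points) with the geometric group mean (bars), by group. Krt7, Krt18 and Krt23 are higher in every tumor than in every control, Krt8 and Krt19 are modestly lower in tumors, and Krt20 is lower in tumors and spreads widely in both tumor groups.

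The abundant keratins Krt8 and Krt18, which pair with each other, did not move together. Krt18 averaged 6891 in CAC tumors (5420 to 8432) against 3455 in their controls (3310 and 3607), and 7496 in sporadic tumors (6249 to 8971) against 3791 in theirs (3561 to 3986). It rose by a log2 of 1.00 ± 0.16 (adjusted p 7.11e-04) and 0.98 ± 0.14 (adjusted p 1.73e-04), and every tumor exceeded every control. Krt8 averaged 11322 in CAC tumors against 16194 in controls and 10391 against 15319 in the sporadic model. It fell by 0.52 ± 0.15 (adjusted p 0.0157) and 0.56 ± 0.12 (adjusted p 0.00346) on the log2 scale, and the call in the CAC model ended without CAC control 1 (adjusted p 0.184). Krt19, a type I keratin of simple epithelium without a tail domain, averaged 15007 against 21036 and 11854 against 18486 and fell by 0.49 ± 0.15 (adjusted p 0.024) and 0.64 ± 0.13 (adjusted p 0.00175). Its CAC call ended without CAC tumor 1 (adjusted p 0.053), CAC tumor 2 (0.0534) or CAC control 2 (0.224). Relative to the other simple epithelium genes neither Krt8 nor Krt19 passed in either model (log2 -0.29 to -0.08, adjusted p 0.064 to 0.653), and Krt18 still rose (1.40 and 1.34).

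Both neighbour pairs went in opposite directions, so the 300 bases around their annotated starts are shown, from RefSeq, 250 before and 50 after the start, 5′ to 3′ on the gene's strand. Capitals mark the letters TATAAA (the letters of a core promoter box when placed upstream of the start), CTTTGA and CTTTGT (forms of the core that TCF factors of the Wnt pathway read), on either strand.
Krt20 (GRCm38.p6, chr11:99438104-99438403, minus strand): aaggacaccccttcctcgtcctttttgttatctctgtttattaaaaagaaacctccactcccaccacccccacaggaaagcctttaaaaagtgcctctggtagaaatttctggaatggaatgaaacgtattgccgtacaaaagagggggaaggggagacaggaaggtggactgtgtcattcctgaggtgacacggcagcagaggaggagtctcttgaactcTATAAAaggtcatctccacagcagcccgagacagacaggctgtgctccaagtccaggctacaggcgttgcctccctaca
Krt23 (GRCm38.p6, chr11:99493071-99493370, minus strand): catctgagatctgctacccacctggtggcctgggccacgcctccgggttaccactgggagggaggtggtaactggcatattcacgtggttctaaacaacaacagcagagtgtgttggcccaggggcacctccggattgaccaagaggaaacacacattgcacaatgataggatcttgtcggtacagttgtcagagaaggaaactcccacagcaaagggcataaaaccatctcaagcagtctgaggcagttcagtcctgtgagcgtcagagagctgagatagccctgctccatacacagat
Krt8 (GRCm38.p6, chr15:102004293-102004592, minus strand): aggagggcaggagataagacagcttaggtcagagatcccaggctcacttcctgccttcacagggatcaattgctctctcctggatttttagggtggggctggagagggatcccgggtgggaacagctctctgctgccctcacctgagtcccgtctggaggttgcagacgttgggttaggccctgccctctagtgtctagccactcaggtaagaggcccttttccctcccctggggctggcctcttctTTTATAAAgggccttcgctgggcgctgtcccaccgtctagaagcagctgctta
Krt18 (GRCm38.p6, chr15:102027966-102028265, plus strand): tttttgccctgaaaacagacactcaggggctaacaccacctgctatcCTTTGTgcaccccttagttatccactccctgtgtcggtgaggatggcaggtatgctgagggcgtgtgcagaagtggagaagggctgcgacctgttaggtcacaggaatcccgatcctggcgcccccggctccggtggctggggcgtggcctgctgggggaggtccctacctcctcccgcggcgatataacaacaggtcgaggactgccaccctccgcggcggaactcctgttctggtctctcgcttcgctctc
TATAAA occurs in the Krt20 window, with its first base at -29 from the annotated start. In Krt8 it lies across the start itself, at -1, and overlaps its own reverse, TTTATA, at -3, and both are marked. Of 32851 promoter windows of this length, 13.6% hold TATAAA on either strand, 16.003% CTTTGA and 18.7% CTTTGT, which among these 4 occurs only in Krt18. Neither the AP-1 site TGAGTCA (5.202% of windows) nor the GC box GGGCGG (35.7%) occurs in any of the 4. These are matches of letters in a short window, and 26 of the 48 member genes have a window in the table.

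Krt36, a type I keratin known from hair, the nail and the tongue, showed the largest difference between the models among expressed members. It read 1173, 1319, 1044 and 766 in CAC tumors 1 to 4 against 27 and 26 in their controls. In sporadic tumors 1 to 5 it read 254, 1265, 171, 764 and 605 against 176, 528 and 463 in theirs. The CAC groups were far apart, while the sporadic tumors spread over and beyond their controls. Krt36 rose 39.8-fold in the CAC model (log2 5.31 ± 0.73, adjusted p 1.93e-04) and did not pass in the sporadic model (log2 0.45 ± 0.61, adjusted p 0.622). The difference of the changes passed (log2 4.86 ± 0.95, adjusted p 0.00857) and did so without CAC tumor 1 (4.81 ± 1.03, adjusted p 0.0181). It came with a difference between the controls, where CAC against sporadic gave a log2 of -3.73 ± 0.77 (adjusted p 0.0088), whereas the tumors differed by 1.14 ± 0.56 (adjusted p 0.227). Only 1 probe set measures Krt36. Of the same hair keratin group, Krt31, Krt33a, Krt33b and Krt34 read 3 to 5 on all arrays and Krt32 read 8 to 12. Krt35, also of that group, read 37, 41 and 13 in sporadic tumors 2, 4 and 5 and 4 elsewhere.

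Krt14, the type I basal keratin, rose in both models, and CAC tumor 1 was its highest array. It read 1739, 144, 120 and 114 in CAC tumors 1 to 4 against 7 on both controls, and 31, 118, 88, 119 and 89 in sporadic tumors 1 to 5 against 7, 7 and 12. All 9 tumors lay above all 5 controls. The log2 change was 5.11 ± 0.99 in the CAC model (adjusted p 0.002) and 4.16 ± 0.51 without CAC tumor 1 (adjusted p 1.76e-04). In the sporadic model it was 3.27 ± 0.84 (adjusted p 0.00823). A second probe set of Krt14 gave 5.18 and 3.44, and the third read 5 on every array. The controls lie at the floor, so the size of the fold depends on that floor.

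Krt5, which pairs with Krt14 in basal cells, was at 7 to 8 in all tumors other than CAC tumor 1. Its log2 change in the CAC model was 1.72 ± 1.82 (adjusted p 0.525) with that array and -0.25 ± 0.08 (adjusted p 0.0374) without it, a step of about 1 rounded unit at the floor. Krt13 (log2 2.38 ± 1.74, adjusted p 0.325, and 0.52 ± 0.33 without CAC tumor 1) and Krt6b (2.15 ± 2.19, adjusted p 0.504, and -0.21 ± 0.11) likewise rested on that array. Krt6a and Krt4 were also raised in other tumors. Krt6a read 34, 93, 129, 47 and 45 in sporadic tumors 1 to 5 against 6, 6 and 8 in their controls. Relative to the other simple epithelium genes Krt6a passed in the sporadic model (log2 3.57, adjusted p 0.0297) and in the CAC model (4.79, adjusted p 0.0196). As measured, its log2 change of 3.21 in the sporadic model did not pass with all arrays (adjusted p 0.0788). This change passed without CAC tumor 1 (adjusted p 0.00126) or CAC tumor 2 (adjusted p 0.049), whose values widen the shared spread. In the CAC model the measured log2 change of Krt6a was 4.38 ± 1.62 (adjusted p 0.0527), 2.77 ± 0.72 (adjusted p 0.0117) without CAC tumor 1 and 5.39 (adjusted p 0.0163) without CAC tumor 2. Its other 2 probe sets gave smaller changes (log2 3.74 and 1.83 for CAC tumors, 1.85 and 1.09 for sporadic tumors), none past the test with all arrays, and the CAC values were 2.17 and 0.20 without CAC tumor 1. Krt4 did not pass in the CAC model, with a log2 change of 3.23 ± 1.65 (adjusted p 0.148) and 1.68 ± 0.90 (adjusted p 0.172) without CAC tumor 1. In the sporadic model it (log2 2.80) had an adjusted p of 0.13 with all arrays and 0.00972 without CAC tumor 1. Relative to the other simple epithelium genes Krt4 had an adjusted p of 0.0498 in the sporadic model (log2 3.15) and 0.064 in the CAC model (3.64).

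Krt15, a type I keratin of basal and progenitor cells, was variable among the sporadic tumors. It read 28, 235, 45, 325 and 403 in sporadic tumors 1 to 5 against 13, 10 and 12 in their controls, and 47, 21, 17 and 13 in CAC tumors 1 to 4 against 10 on both controls. Sporadic tumors 2, 4 and 5 were the high arrays, and these were also the 3 highest for Krt36. Krt15 rose in the sporadic model (log2 3.50 ± 0.85, adjusted p 0.00632) and not past the test in the CAC model (1.11 ± 1.01, adjusted p 0.448). Sporadic tumors exceeded CAC tumors (log2 -2.60 ± 0.78 for CAC against sporadic, adjusted p 0.0476), a call that ended when any of 11 arrays was left out (highest adjusted p 0.12). The changes differed by -2.39 ± 1.32 (adjusted p 0.317). Krt35, a hair keratin, read 37, 41 and 13 in the same sporadic tumors 2, 4 and 5 and 4 on every other array. Its log2 change was 1.65 ± 0.74 (adjusted p 0.0936), or 2.01 (adjusted p 0.0231) relative to the other simple epithelium genes.

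**Figure D4:**
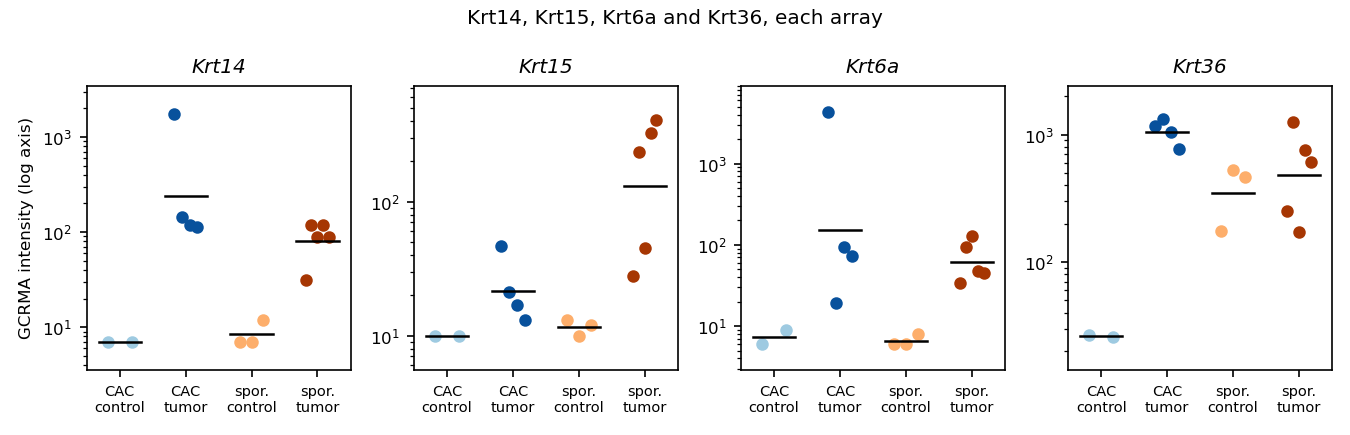
Intensity (log axis) of Krt14, Krt15, Krt6a and Krt36 on each array (points) with geometric group means (bars). Krt14 separates tumors from controls in both models, Krt15 is high in 3 sporadic tumors, CAC tumor 1 is the single highest point for Krt6a and Krt14, and Krt36 is low only in the 2 CAC controls.

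Among the remaining stratified keratins, Krt17, a keratin of activated epidermis, ranged from 12 to 53 in CAC tumors and 12 to 129 in sporadic tumors, against 10 to 15 in controls, and did not pass (adjusted p 0.745 and 0.194). Krt10, a keratin of suprabasal epidermis, averaged 33.1 in sporadic tumors against 59.5 in their controls and fell (log2 -0.85 ± 0.22, adjusted p 0.00802, but -0.49, adjusted p 0.0948, relative to the other simple epithelium genes), while CAC tumors and controls averaged 33.6 and 36.9. Krt16 reached 16 in CAC tumor 1 and 22 in sporadic tumor 4 and 7 to 8 elsewhere, with all geometric group means under 10. Krt32 stayed at 8 to 12. The other genes without a group mean of 10 were Krt1, Krt2, Krt12, Krt25, Krt27, Krt31, Krt33a, Krt33b, Krt34, Krt71, Krt72, Krt75, Krt77, Krt80, Krt81, Krt84, Krt85, Dsc1 and Dsc3.

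In the desmosome, Dsg2, the desmoglein of simple epithelium, was read by 6 probe sets. On the brightest, CAC tumors read 1159, 1808, 1334 and 2093 against 2364 and 2368 in their controls, and sporadic tumors 1287 to 1603 against 1224 to 1595. The CAC tumors all lay under their controls, and the sporadic groups overlapped. Dsg2 fell in the CAC model on that probe set (log2 -0.61 ± 0.21, adjusted p 0.0398, but -0.20, adjusted p 0.475, relative to the other simple epithelium genes) and on the other 5 (log2 -1.43 to -0.37, adjusted p 0.00636 to 0.0248). In the sporadic model 2 of the 6 fell (log2 -1.79 and -0.96), the dimmest of them, and the others had log2 changes from -0.42 to 0.08. The CAC controls were higher than the sporadic controls on all 6, past the test on 3 (log2 0.76 to 0.88), where the call on the brightest ended without any of 9 arrays (highest adjusted p 0.156), and the difference of the changes passed on none (adjusted p 0.112 to 0.912). The call on the brightest probe set ended without any of 8 arrays, with adjusted p values from 0.0503 to 0.145, among them CAC tumor 1 (0.0695) and either CAC control (0.14 and 0.145).

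Dsc2, the desmocollin that accompanies Dsg2, gave different readings on its probe sets. On one, CAC tumors read 381, 499, 483 and 463 against 268 and 315 in their controls, and sporadic tumors read 237 to 260 against 239 to 281. It rose in the CAC model (log2 0.64 ± 0.11, adjusted p 7.55e-04), not in the sporadic model (-0.08 ± 0.09, adjusted p 0.536), and the changes differed (0.72 ± 0.14, adjusted p 0.00801). As measured, the brighter probe set did not pass in any comparison with all arrays (CAC log2 0.33 ± 0.27, adjusted p 0.399, and difference of the changes 0.27 ± 0.36, adjusted p 0.729). Relative to the other simple epithelium genes it rose in the CAC model (log2 0.73, adjusted p 0.0225) and did not pass in the sporadic model (0.41, adjusted p 0.0985). Dsc1 and Dsc3, the desmocollins of stratified epithelium, read 6 to 10 and 7 to 9 on all arrays, CAC tumor 1 included.

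As measured, Jup, the plakoglobin gene, whose protein is a close relative of beta-catenin, separated the blocks and not tumors from controls. It read 151, 235, 161 and 197 in CAC tumors 1 to 4 and 215 and 211 in their controls, against 528 to 770 in sporadic tumors and 488 to 561 in theirs. All 6 arrays of block 1 lay under all 8 of block 2. Only 1 probe set measures Jup, and it is counted here as less specific. The log2 difference was -1.84 ± 0.15 between tumors (adjusted p 9.95e-06) and -1.30 ± 0.20 between controls (adjusted p 0.0016), whereas tumor against control gave -0.22 ± 0.19 and 0.33 ± 0.16 (adjusted p 0.433 and 0.131). Relative to the other simple epithelium genes Jup rose in the sporadic model (log2 0.68, adjusted p 4.98e-04) and did not pass in the CAC model (0.19, adjusted p 0.285). Beta-actin's 3' over 5' signal, which rises as RNA degrades, also differed in range, with log2 ratios of 0.74 to 0.98 in block 1 and 0.86 to 1.28 in block 2, and its part in the Jup difference was not tested.

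Pkp1, the plakophilin otherwise strongest in stratified epithelium, rose in both models. It read 1110, 411, 292 and 296 in CAC tumors 1 to 4 against 142 and 161 in their controls, and 711, 555, 802, 602 and 833 in sporadic tumors 1 to 5 against 201, 256 and 190 in theirs. All 9 tumors exceeded all 5 controls. The log2 change was 1.56 ± 0.45 in the CAC model (adjusted p 0.0174), 1.12 ± 0.22 without CAC tumor 1 (adjusted p 0.00283), and 1.69 ± 0.38 in the sporadic model (adjusted p 0.00388). The CAC call ended without either control (adjusted p 0.0978 and 0.0662). The sporadic tumors exceeded CAC tumors once CAC tumor 1 was left out (log2 -1.07 ± 0.17 for CAC against sporadic, adjusted p 0.00287).

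Pkp4, a plakophilin relative found at several junctions, read 339, 308, 207 and 192 in CAC tumors 1 to 4 against 149 and 137 in their controls. In sporadic tumors 1 to 5 it read 184, 174, 219, 137 and 131 against 90, 81 and 72. Within each model all tumors exceeded the controls. It rose in both models (log2 0.83 ± 0.26, adjusted p 0.0251, and 1.04 ± 0.22, adjusted p 0.00255), and the CAC call ended without CAC tumor 1 (adjusted p 0.0529), CAC tumor 2 (0.0583) or either control (0.0815 and 0.133). A second, dimmer Pkp4 probe set averaged 19.2 in CAC tumors against 13.5 and 14.7 against 12.5 in the sporadic model, and passed in neither. Pkp2, the plakophilin of simple epithelium, had group means of 223 to 326 on its brightest probe set and did not pass there (adjusted p 0.226 and 0.389), but a second rose in both models (log2 0.54 ± 0.19, adjusted p 0.0464, or 0.0723 without CAC tumor 1, and 0.80 ± 0.16, adjusted p 0.00228). Another Pkp2 probe set, with group means of 7.19 to 10.95, fell in both (log2 -0.45 ± 0.08, adjusted p 9.00e-04, and -0.27 ± 0.07, adjusted p 0.00634). Pkp3, a plakophilin of most epithelia, averaged 263 to 309 in all groups (adjusted p 0.562 and 0.918). Dsp, the desmoplakin gene, averaged 2028 in CAC tumors against 1743 and 1494 against 1141 in the sporadic model, and none of its 3 probe sets passed in either (lowest adjusted p 0.16). Relative to the other simple epithelium genes, the brightest Pkp2 probe set rose in both models (log2 0.95, adjusted p 0.0116, and 0.68, adjusted p 0.0224). On that scale Pkp3 passed in the CAC model only (0.53, adjusted p 0.0494, and 0.31, adjusted p 0.139). Dsp passed there in the sporadic model only (0.74, adjusted p 0.0126, against 0.63, adjusted p 0.068, for CAC).

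The related plakins Evpl and Ppl, partners in the cornified envelope, moved in opposite directions. Evpl, envoplakin, read 92, 46, 33 and 50 in CAC tumors 1 to 4 against 154 and 168 in their controls, and 40, 53, 63, 63 and 55 in sporadic tumors 1 to 5 against 102, 142 and 105. Every tumor lay under every control, and Evpl fell in both models (log2 -1.65 ± 0.33, adjusted p 0.00272, and -1.09 ± 0.28, adjusted p 0.00892). Ppl, periplakin, read 76, 17, 19 and 16 in CAC tumors 1 to 4 against 17 and 6, and 26, 45, 47, 38 and 42 in sporadic tumors 1 to 5 against 9 on all 3 controls. It rose in the sporadic model (log2 2.11 ± 0.51, adjusted p 0.00575) and did not pass in the CAC model (1.31 ± 0.60, adjusted p 0.107, and 0.78 ± 0.38, adjusted p 0.136, without CAC tumor 1), where tumors and controls overlapped. Relative to the other simple epithelium genes Ppl passed in the CAC model with all arrays (log2 1.72, adjusted p 0.0242). Without CAC tumor 1, CAC tumors were lower than sporadic tumors (log2 -1.17 ± 0.30, adjusted p 0.0306).

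**Figure D5:**
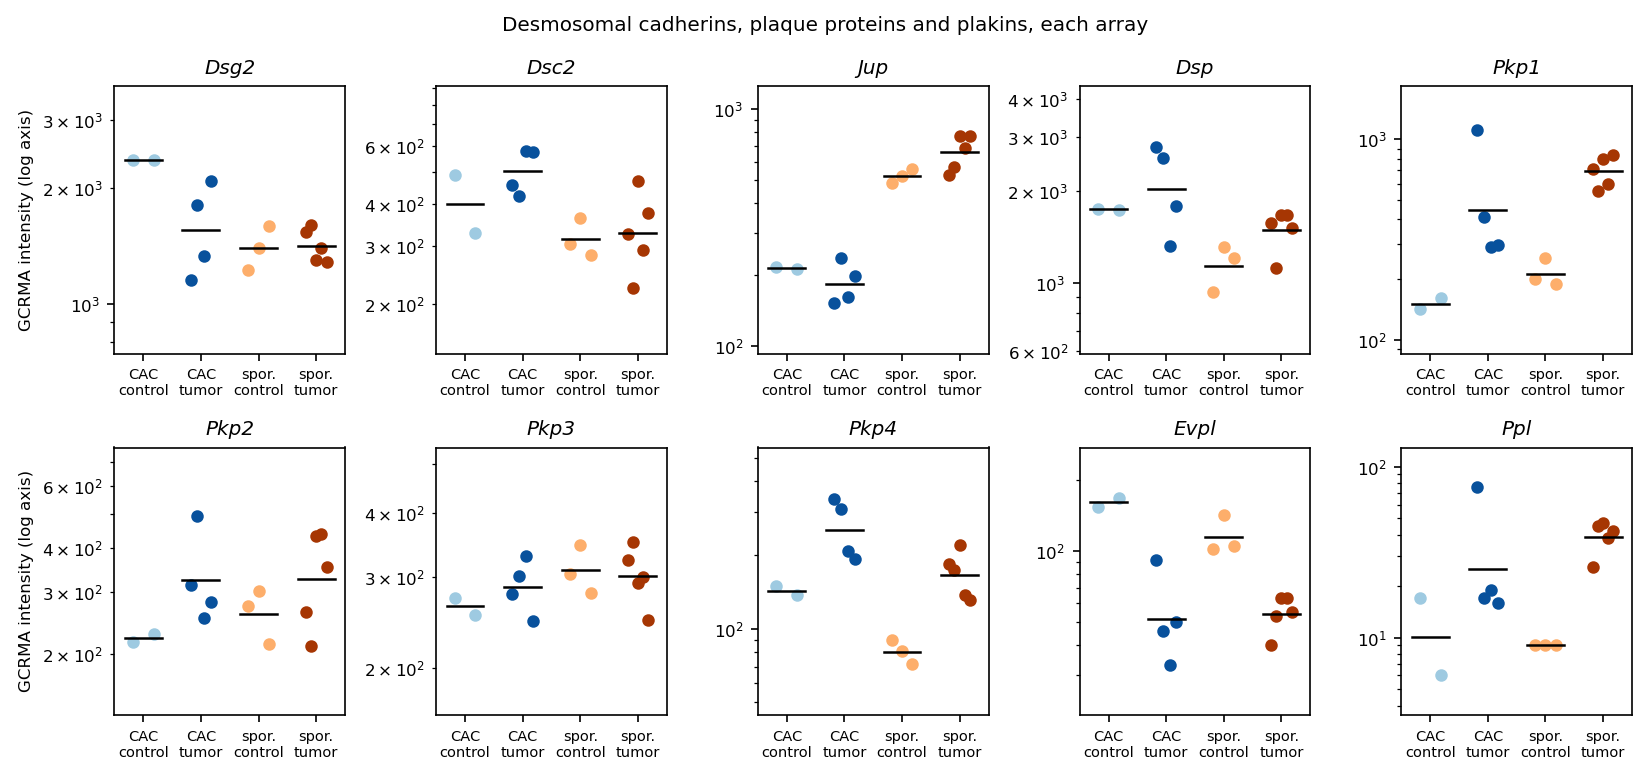
Intensity (log axis) of 10 desmosomal genes on each array (points) with geometric group means (bars), 1 probe set a gene. Jup separates the CAC arrays from the sporadic arrays, Pkp1 is higher and Evpl lower in all tumors than in all controls, and Dsg2 is lower in CAC tumors than in CAC controls only.

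The direct comparison of the tumors asks how the tumor types differ. Of the 67 members, 8 were higher in CAC tumors (11.9%, against 7.88% of all probe sets) and 3 lower (4.48%, against 7.58%), where 15.5% of all were called in either direction. Of the 8 higher, 3 had all group means under 10. With 1 probe set per gene, 3 of 48 were higher (6.25%) and 2 lower (4.17%). At least 2-fold, Krt20 was higher (1.47% of all probe sets were) and Jup and Krt15 were lower (2.79% of all). Without CAC tumor 1, 9 were higher and 5 lower (8.05% and 7.09% of all, together 15.1%).

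Between the controls, 7 members were higher in the CAC model (7.61% of all probe sets) and 2 lower (6.4% of all), where 14.0% of all were called. Of the 7, 3 had all group means under 10 and 3 were probe sets of Dsg2. The remaining 1 was the Pkp2 probe set with group means of 7.19 to 10.95. The 2 lower members were Krt36 and Jup, both by at least 2-fold (2.53% of all), and 0 were higher by that much (1.18% of all). Each of these 2 genes is measured by 1 probe set, counted here as less specific. Without such probe sets 5 of 50 members were higher and 0 lower (7.58% and 5.34% of all). Without CAC tumor 1, 7 were higher and 3 lower (7.58% and 6.85% of all, together 14.4%). Leaving out sporadic control 1 gave 5 calls in all (10.8% of all probe sets), and leaving out sporadic control 2 gave 4 (9.57%).

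For the difference of the tumor changes, 5 members were higher in the CAC model (3.5% of all) and 1 lower (4.2%), 6 in all, where 7.69% of all probe sets were called. Of these 6, 4 had all group means under 10, and the others were Krt36 and 1 of the Dsc2 probe sets. Krt36 was the 1 past 2-fold (1.1% of all were higher and 1.01% lower by that much). The counts without CAC tumor 1 were again 5 and 1 (3.71% and 4.14% of all, together 7.85%). In these comparisons model and block are the same split, and the control comparison rests on 2 against 3 pools.

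Neighbouring structures were counted from fixed lists of genes that are no members. Of 8 measured genes of the hemidesmosome, the junction that anchors keratins to the basement membrane, 2 rose and 1 fell in the CAC model and 4 rose and 1 fell in the sporadic model (1 rose and 2 fell in the CAC model without CAC tumor 1), with median log2 changes of 0.29 and 0.40 against -0.05 and -0.04 over all probe sets. Its integrin gene Itga6 rose in both (log2 1.69 ± 0.25 and 1.45 ± 0.21), and its plakin gene Dst fell in both (-2.09 ± 0.31 and -1.95 ± 0.26). Of 9 adherens junction genes, 1 rose and 3 fell in the CAC model and 4 rose and 2 fell in the sporadic model (medians -0.09 and -0.10), with the beta-catenin gene Ctnnb1 rising in both (0.94 ± 0.07 and 1.60 ± 0.06). Of 14 other intermediate filament genes, 1 rose in each model, which was Vim, the vimentin gene of connective tissue and leukocytes (log2 5.15 ± 0.35 and 7.06 ± 0.30). In the same list 8 fell in CAC tumors and 5 in sporadic tumors (medians -0.21 in both), and 7 of the 14 had all group means under 10. Of 4 measured mesothelium genes, 0 rose in the CAC model and 1, Msln, in the sporadic model (34.8 against 7.32), and 3 had all group means under 10.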

How the data were processed

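Total RNA of 14 samples was hybridized to 1-colour Affymetrix arrays, per the labels. The deposited table gives an intensity per probe set, made by the authors using GCRMA, per the submitters' processing notes (no version is named there). The deposited intensities are whole numbers from 2 to 31599 and equal the series matrix values in every cell. The deposited table also gives the authors' absolute fold change (a ratio) and a corrected p-value, per the file headers, which name no test.

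After removal of 64 control probe sets, log2 intensities were fitted in limma 3.58.1 (R 4.3.3) with 4 group means over all 14 arrays and eBayes (residual degrees of freedom 10, prior 0.543). Benjamini-Hochberg adjustment ran over 22626 probe sets per comparison. Errors after ± are standard errors of the contrast. Each gene is shown by its probe set with the largest mean, and members past the test with at least a 2-fold tumor change and a group mean of at least 32, or past the test of the difference, are given array by array. The members, lists and tests were chosen with earlier results of these data known. Left out were 2 probe sets listed as krt86 in lower case and 3 with several symbols. All members but Krt85 match a RefSeq symbol (GRCm38.p6). The fit was tested on simulated data. No pair of arrays was identical (at least 13900 probe sets differed). The p-values rest on 1 spread per probe set, shared by tumors of single mice and control pools of 4 or 5 mice. They therefore do not measure the spread between single animals within each group. Alternatives covered thresholds, filters, an offset of 16, normalization, eBayes options, the arrays used, blocks and probe set choice. Precision is limited by the 14 arrays.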

Additional observations from a re-analysis of the deposited data

Results flagged for a closer look

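Dixon's test was set up for 56 groups of 4 or 5 arrays (28 genes, both tumor groups). Groups with the same value on every array, Krt35 in CAC tumors and Krt6b in sporadic tumors, could not be tested. Chance marks about 1 in 20 groups, a rate that need not hold for tied whole numbers at the floor. The test marked 9 arrays as far from the others of their group. Of these, 4 were CAC tumor 1 as the highest array, for Krt14 (1739), Krt5 (1866), Krt6b (3048) and Ppl (76). The others were Krt14 in sporadic tumor 1 (31, the lowest), Dsp in sporadic tumor 2 (1119, the lowest), Krt13 in sporadic tumor 2 (9 against 10) and Krt32 in CAC tumor 3 (12) and sporadic tumor 3 (8), the last 3 being steps of few rounded units at the floor.

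The tumor change differed between the models for Krt36 (log2 4.86, higher in the CAC model, adjusted p 0.00857 by limma) and for 1 of the Dsc2 probe sets (log2 0.72, adjusted p 0.00801). For Krt36 the controls differed more than the tumors did, and for Dsc2 the other probe set did not pass.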

How the results depend on the processing

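In the CAC model 26 of 67 members were called. The count was 12 when only the arrays of the 2 groups compared were fitted (31.5% of all probe sets), 17 of 50 without less specific probe sets (38.2%), 15 at an adjusted p under 0.01 (29.2%), 9 with a 2-fold minimum (14.8%), 16 of 48 with 1 probe set per gene (chosen after seeing the data) and 14 to 25 when 1 array was left out (33.4% to 39.5%). In the sporadic model it was 25, or 11 with the 2-fold minimum (18.4%) and 23 to 28 with 1 array left out (36.9% to 46.5%). Between tumors 11 members were called, 6 at 0.01 (7.54%), 3 at 2-fold (4.26%), 5 with 1 probe set per gene and 8 to 14 with 1 array left out (at most 15.1%). Quantile normalization made that split 11 higher and 2 lower (9.12% and 6.63%), against 8 and 3. Between controls 9 were called, 5 of 50 without less specific probe sets (12.9%), 3 relative to the simple epithelium genes (7.27%), 4 at 0.01 (6.73%), 2 at 2-fold (3.71%), 5 with 1 probe set per gene and 4 to 10 with 1 array left out (9.57% to 14.4%). For the difference of the changes 6 were called, 2 of 36 with a group mean of at least 32 (4.81%), 2 relative to the simple epithelium genes (1.7%), 1 at 2-fold (2.12%), 3 with 1 probe set per gene and 6 to 7 with 1 array left out (6.88% to 10.2%). Without CAC tumor 1, Krt5 in the CAC model changed direction, to -0.25 (adjusted p 0.0374), and Krt6b, past the test in neither fit, went to -0.21. The cause of these shifts was not tested.

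Deviations of same-numbered tumors and controls gave correlations of -0.02 and -0.03 in the CAC model and 0.05, 0.00 and -0.09 in the sporadic model. The 2 CAC controls deviate from their mean as mirror images, and all controls are pools. These values therefore cannot show whether the numbers pair the samples. With the replicate number as a block, the calls were 23, 21, 10, 4 and 5 in the order above (35.8%, 40.9%, 10.2%, 8.99% and 5.84% of all probe sets).

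Of 140 pairs of an expressed gene and a comparison, 31 were called, and 23 of these calls held without each array in turn. The comparisons pooled here overlap, and they called from 7.69% to 46.0% of all probe sets. The share of calls that held is not given for all probe sets, so these counts are no result about the members. With 2 pools in the CAC control, calls there rest on few values, and members near the floor of 3 to 10 give only a coarse fold.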
